A study of Homo sapiens with 6 samples.

Results

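The integrated stress response (ISR) was examined through 31 genes chosen by symbol, and all 31 were found once each among the 20356 genes of the series table. They were set in 8 groups by role: the eIF2 kinases, translational feedback, transcription factors, serine and amino acid synthesis, transsulfuration and glutathione, mitochondrial enzymes, signalling brakes, and secreted proteins with a receptor. RNA-seq had been made from 3 libraries of H1975 OR, a lung adenocarcinoma line with acquired osimertinib resistance grown in 1 µM osimertinib, and from 3 libraries of its parent H1975, grown without the drug. Osimertinib inhibits mutant EGFR, and the study compared expression before and after resistance. Both lines grew in the same serum-supplemented RPMI-1640 medium. H1975 OR is a single derivative, whether it was a clone or a pool is not given in the sources used here, and the drug was present only in its cultures, so resistance, drug exposure and the history of this line cannot be told apart. Levels are in FPKM, which takes library size and transcript length into account, so that they can be compared between genes.

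In the ISR, stress-sensing kinases phosphorylate the translation initiation factor eIF2, which slows protein synthesis in general while mRNAs such as that of ATF4 are translated more. ATF4 and its partners then raise the transcription of genes for amino acid synthesis and uptake, tRNA charging, redox balance and feedback, and CHOP, the product of DDIT3, acts when stress persists. Since ATF4 is controlled to a large part at translation, its mRNA level is not a measure of its activity. None of the data reported here measured phosphorylation or protein.

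The estimated mapped sequence lay between 9.72 and 11.5 gigabases in the resistant libraries and between 10.8 and 14.7 gigabases in the parental libraries. It was read from the ratio of deposited coverage to FPKM, since read counts were not used here. EGFR, the target of the drug, fell (limma adjusted p = 3.1e-08) and averaged 16.9 ± 0.732 FPKM in resistant and 31.7 ± 0.472 FPKM in parental cells (SD, n = 3 each). The epithelial lineage of the label was less marked in the resistant cells. Of 10 epithelial and lung markers 8 fell, beside 38.1% of all tested genes, and the other 2 were under the level tested. Their falls differed widely in size, from -0.40 for KRT8 to -6.71 for EPCAM on the log2(FPKM + 1) scale. KRT8 averaged 384 FPKM in resistant and 508 FPKM in parental cells, and EPCAM 1.02 and 211 FPKM. The summed level of all 10 markers was 915 to 992 FPKM in resistant and 2996 to 3504 FPKM in parental libraries. NKX2-1 was listed at 0 in every resistant library. Of 9 fibroblast markers 2 were tested, COL1A1 and PDGFRB, which rose, and 7 were under the level tested. The summed level of the list was 18.1 to 22.0 FPKM in resistant and 2.44 to 2.97 FPKM in parental libraries. DCN was listed at 0 in all 6. Of 6 leukocyte markers 2 were tested, CD14 and CD68, which rose, and 4 were under the level tested. The leukocyte list summed to 70.3 to 80.2 FPKM in resistant and 24.1 to 27.6 FPKM in parental libraries. CD3E was listed at 0 throughout, and PTPRC did not exceed 0.0404 FPKM. CDH5 rose and EGFL7 fell on the endothelial list, where 3 more genes were under the level tested. This list summed to 1.27 to 1.59 FPKM in resistant and 1.93 to 2.54 FPKM in parental libraries. The erythroid list stayed below 0.1 FPKM. The part of these shifts in the ISR values was not tested, and in bulk RNA fewer cells of a type and less RNA per cell cannot be told apart.

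Most ISR genes were more abundant in resistant cells. Together the 31 genes summed to 1253, 1313 and 1378 FPKM in the resistant libraries and to 817, 771 and 769.7 FPKM in the parental libraries. Of the FPKM summed over the 20356 genes of the series table, that was 0.315% to 0.340% in resistant cells and 0.183% to 0.192% in parental cells. Genes were tested where their mean reached 1 FPKM in either group, which 30 of the 31 did, with limma on log2(FPKM + 1) and an adjustment over all 12107 genes tested. At a false discovery rate (FDR) of 0.05, 22 of the 30 rose, 4 fell and 4 did not pass. Without parental replicate 2 the number that fell was 2. Among all tested genes 78.0% passed, 39.9% upward and 38.1% downward, so that passing was common in this comparison. The ISR genes' 73.3% upward and 13.3% downward differ from this background more in direction than in the share that passed. The set was chosen with earlier results of these data known, so its difference from the background was not tested. Of the 30, 14 rose by 1 or more in log2 units, against 9.95% of all tested genes, and 1 fell by that much, against 9.39%, so that 15 moved this far in either direction, against 19.3%. The median difference was 0.88 over the 30 tested genes and 0.80 over all 31, beside 0.01 over all genes tested. In 23 of the 31 every resistant library lay above every parental one, a pattern of 40.8% of all tested genes. The reverse held for 3, against 39.0%, and in the remaining 5 the groups overlapped. The share without overlap, 26 of 31, was near the 79.8% of all tested genes.

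**Figure D1:**
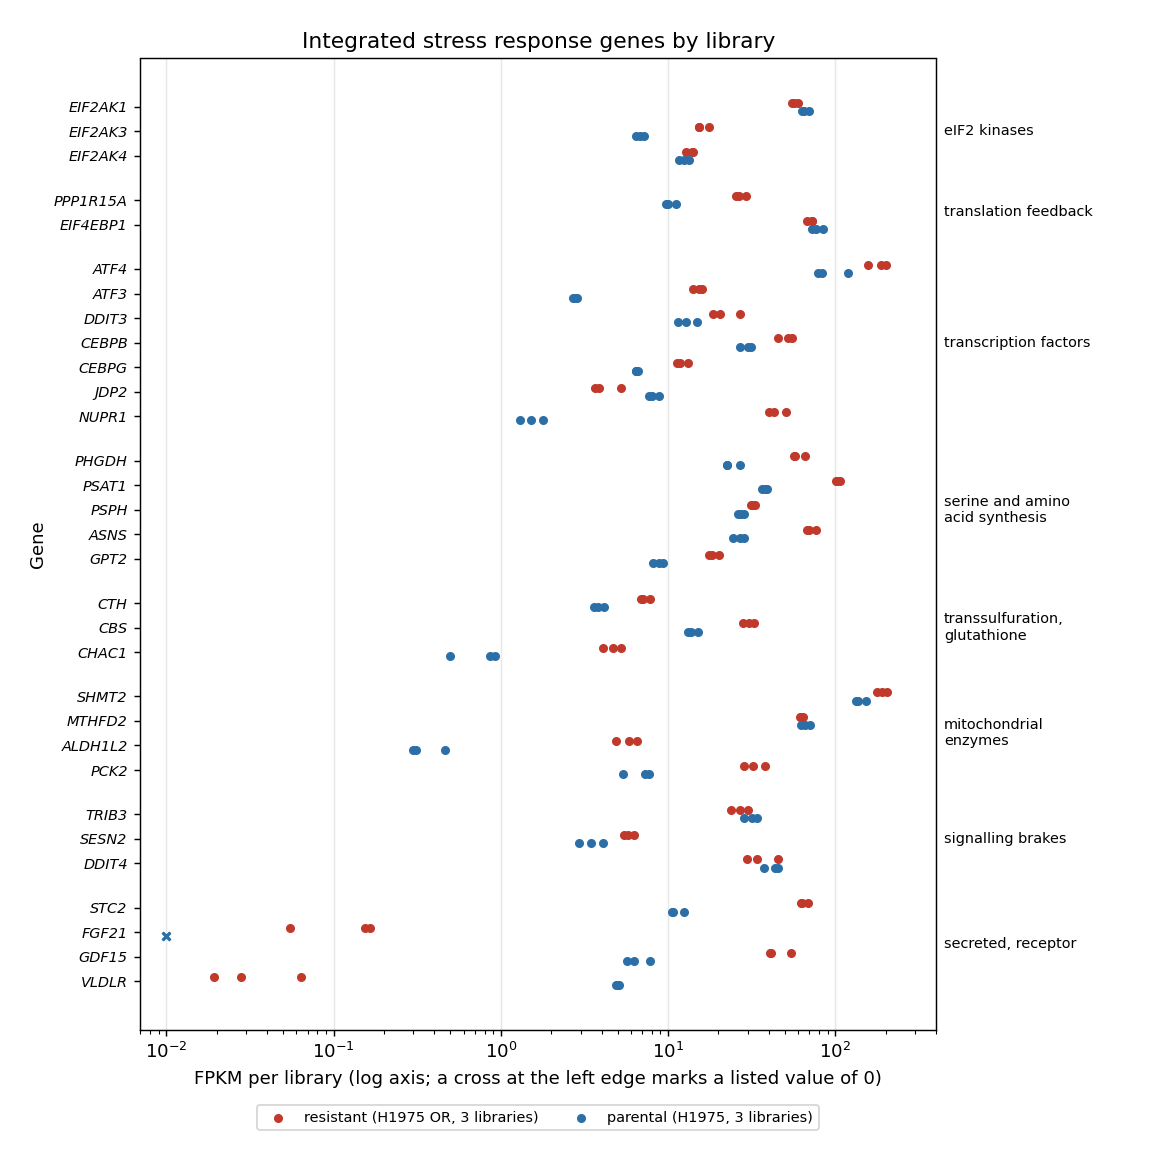
Level of each of the 31 genes in each library, in FPKM on a log axis, grouped by role, with resistant libraries in red above parental libraries in blue and crosses for listed values of 0. Resistant points lie to the right of the parental ones for 23 genes and to the left for EIF2AK1, JDP2 and VLDLR.

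Response elements known from ISR promoters are shown here because several of the genes described next carry one. The C/EBP-ATF response element (CARE, searched as TGATGNAA on both strands) is bound by ATF4 with C/EBP partners, and the cAMP response element (CRE, TGACGTCA, a palindrome) by ATF and CREB factors. RefSeq promoters on GRCh38.p14 were matched by symbol for 24 of the 31 genes, at 36 annotated starts, and the 250 bases before each start were searched. CARE letters stood before a start of 6 of the 24 genes, and before 3.89% of all 27305 genes searched. The CRE stood before 1 of the 24 and before 2.03% of all genes. These matches are descriptions of the sequence and not measured binding sites. In the lines below the match is in capitals. All read 5′ to 3′ on the strand of the gene, so that TTGCATCA is the element on the opposite strand, and the shorter stretches lie before a later start of their gene.
ASNS, chr7:97872443-97872502, minus strand, CARE 68 to 61 bases before the start: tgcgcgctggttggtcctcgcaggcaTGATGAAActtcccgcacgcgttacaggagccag
ATF3, chr1:212565190-212565249, plus strand, CARE 191 to 184 bases before the start: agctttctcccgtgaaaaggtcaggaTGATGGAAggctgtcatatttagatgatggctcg
CHAC1, chr15:40953236-40953295, plus strand, CARE 209 to 202 bases before the start: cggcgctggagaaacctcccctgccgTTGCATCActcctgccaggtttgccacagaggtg
FGF21, chr19:48755444-48755503, plus strand, CARE 54 to 47 bases before the start: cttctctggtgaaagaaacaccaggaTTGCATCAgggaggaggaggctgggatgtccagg
CEBPG, chr19:33374060-33374089, plus strand, CARE 42 to 35 bases before the start: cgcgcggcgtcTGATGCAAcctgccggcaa
JDP2, chr14:75427992-75428021, plus strand, CARE 16 to 9 bases before the start: tatatagccggggcTGATGCAAcccgtccc
PPP1R15A, chr19:48872337-48872396, plus strand, CRE 58 to 51 bases before the start: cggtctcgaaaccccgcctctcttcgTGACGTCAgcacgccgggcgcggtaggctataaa

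The eIF2 kinases differed from one another. EIF2AK3 (GRCh37 chr2:88856259-88927094), which encodes PERK, the kinase that senses unfolded proteins in the endoplasmic reticulum, was at 15.2, 15.4 and 17.5 FPKM in resistant replicates 1 to 3 and at 7.19, 6.81 and 6.45 FPKM in parental replicates 1 to 3. The groups did not overlap, and the rise was 1.12 ± 0.0708 (SE) on the log2 scale (limma adjusted p = 1.6e-08). EIF2AK1 (chr7:6061881-6098861), which encodes the heme-regulated kinase HRI that also relays mitochondrial stress, was at 55.1, 59.5 and 56.8 FPKM in resistant libraries and at 65.1, 69.2 and 62.8 FPKM in parental libraries. This was a fall by 0.20 ± 0.0628 (limma adjusted p = 0.0118). Without parental replicate 2 the adjusted p was 0.0577, and over 15 alternatives it ranged from 0.00288 to 0.0577. EIF2AK1 shares 1585 bases with AIMP2 on the other strand, at 43.5 and 50.4 FPKM in resistant and parental cells, and whether strand was used in quantification is not given in the sources used here. EIF2AK4 (chr15:40226347-40327797), which encodes GCN2, the sensor of uncharged tRNA, overlapped between the groups at 12.8 to 14.0 FPKM in resistant and 11.6 to 13.3 FPKM in parental libraries. It did not pass, with a difference of 0.12 and a 95% interval of -0.03 to 0.26 (limma adjusted p = 0.134).

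Feedback on translation was represented by a phosphatase subunit and a cap-binding repressor. PPP1R15A (chr19:49375649-49379314), the GADD34 subunit that directs the dephosphorylation of eIF2 and carries the CRE printed above, was at 25.5, 29.1 and 26.7 FPKM in resistant libraries and at 11.1, 10.0 and 9.66 FPKM in parental libraries. All 3 resistant values were above all parental ones (difference 1.32 ± 0.0709, limma adjusted p = 3.4e-09). EIF4EBP1 (chr8:37887859-37917883), a repressor of cap-dependent translation and an ATF4 target in other cells, was at 67.5 to 72.9 FPKM in resistant and 72.9 to 84.0 FPKM in parental libraries. It did not pass at a difference of -0.13, with an interval of -0.28 to 0.02 (limma adjusted p = 0.0946). It passed as lower with median-of-ratios scaling (adjusted p = 0.0409) and without parental replicate 3 (adjusted p = 0.0386), in a range of 0.0386 to 0.375 over the alternatives.

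Of the 7 transcription factors and coregulators 6 rose and 1 fell, beside 39.9% and 38.1% of all tested genes. ATF4 (chr22:39915700-39918691), the central factor of the response, was at 188, 201 and 156 FPKM in resistant libraries and at 119, 79.2 and 82.8 FPKM in parental libraries. Its groups stood apart although it was among the most variable of the set (difference 0.96 ± 0.178, limma adjusted p = 0.00243). ATF3 (chr1:212738676-212794119), a stress-induced factor of the same family and one of the genes with CARE letters, was at 14.0, 15.3 and 15.96 FPKM in resistant libraries and at 2.69, 2.80 and 2.84 FPKM in parental libraries. The ratio of its means was 5.44 (difference 2.09 ± 0.0664, limma adjusted p = 2.8e-11). DDIT3 (chr12:57910371-57914300), which encodes CHOP, was at 18.7, 20.3 and 27.0 FPKM in resistant libraries and at 11.5, 12.8 and 14.99 FPKM in parental libraries. The rise was 0.70 ± 0.147 (limma adjusted p = 0.00316), smaller than that of ATF3, and 982 bases of DDIT3 overlap the tRNA synthetase gene MARS on the other strand, at 97.9 and 52.6 FPKM in resistant and parental cells.

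Other factors of this group split between partners that rose and one repressor that fell. CEBPB (chr20:48807376-48809212), a C/EBP partner of ATF4 and CHOP, averaged 50.7 ± 4.84 FPKM in resistant and 29.5 ± 2.43 FPKM in parental cells (SD, n = 3 each). CEBPG (chr19:33864236-33873592), a heterodimer partner of ATF4 on amino acid genes, averaged 12.1 ± 0.901 FPKM in resistant and 6.50 ± 0.116 FPKM in parental cells. Both rose, by 0.76 and 0.80 on the log2 scale, with no overlap between the groups (limma adjusted p = 2.8e-06 and 2.2e-07). NUPR1 (chr16:28548606-28550495), a small chromatin-associated stress protein, had the largest difference of the set on the log2(FPKM + 1) scale, though not with a pseudocount of 0.1 FPKM, where VLDLR differed more (-5.23 beside 4.77). NUPR1 was at 40.1, 43.1 and 50.6 FPKM in resistant libraries and at 1.52, 1.31 and 1.80 FPKM in parental libraries, a ratio of means of 28.9 (difference 4.16 ± 0.0938, limma adjusted p = 4.8e-12). In resistant cells 86.7% of all tested genes lay below its level, and in parental cells 9.73%. JDP2 (chr14:75894419-75940814), a relative of ATF3 that represses AP-1 and ATF sites, went the other way, at 3.65, 3.86 and 5.20 FPKM in resistant libraries and at 8.88, 7.70 and 7.97 FPKM in parental libraries. It fell by 0.82 ± 0.104 (limma adjusted p = 2.1e-05), with CARE letters before one of its starts as in ATF3.

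**Figure D2:**
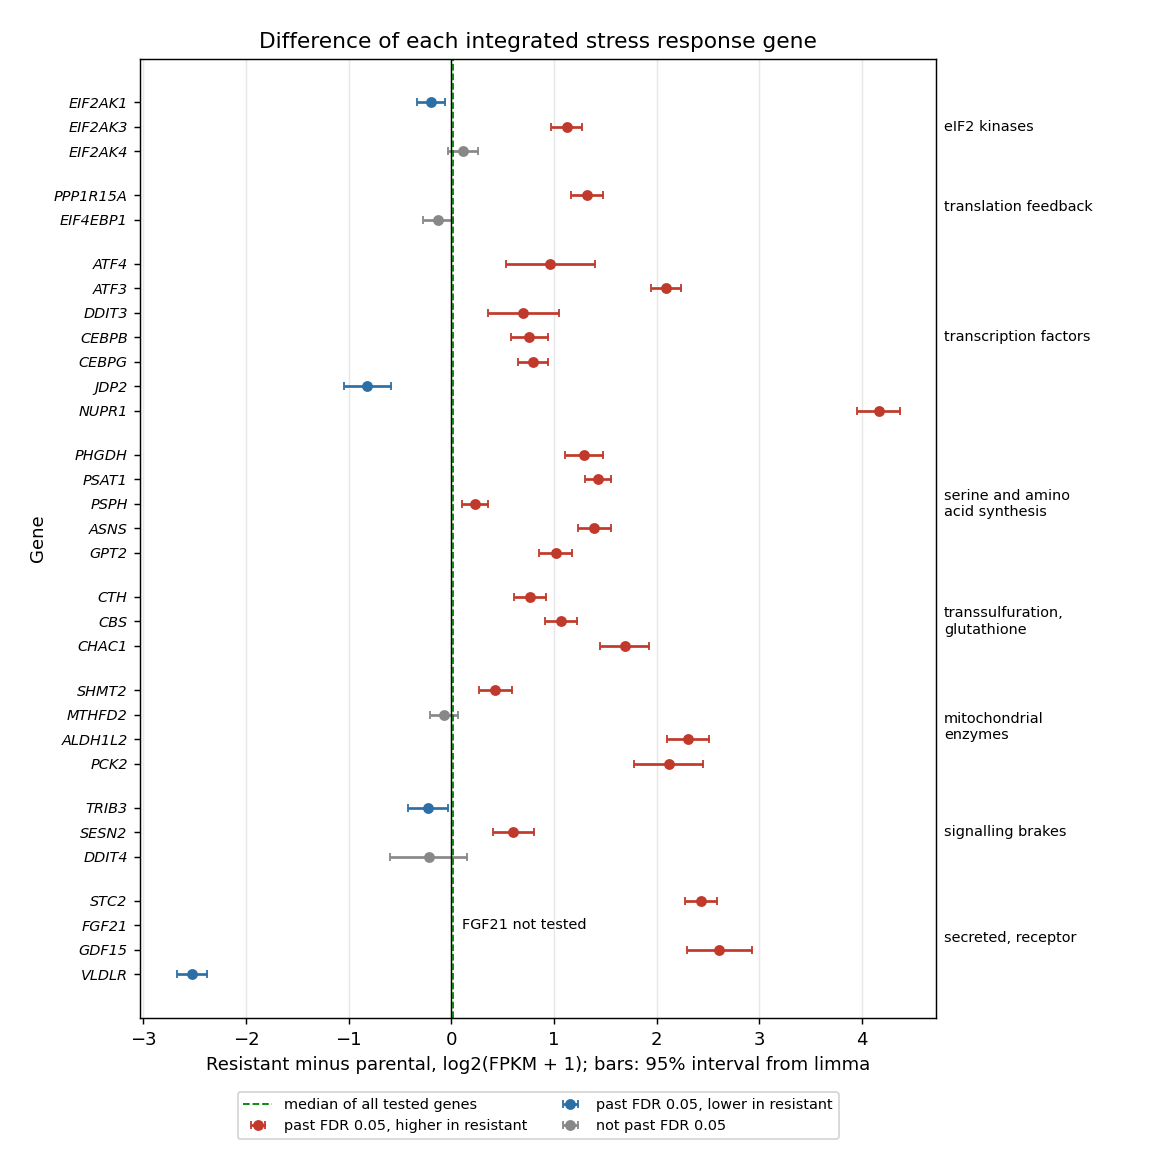
Difference of each gene, resistant minus parental, in log2(FPKM + 1) units, with 95% intervals from limma, grouped by role. NUPR1 stands farthest to the right at 4.16 and VLDLR farthest to the left at -2.53, while EIF2AK4, EIF4EBP1, MTHFD2 and DDIT4 did not pass.

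All 5 genes of serine and amino acid synthesis rose, beside 39.9% of all tested genes. PHGDH (chr1:120202421-120286838), which encodes the entry enzyme of serine synthesis, was at 57.0, 57.1 and 65.7 FPKM in resistant libraries and at 27.0, 22.4 and 22.5 FPKM in parental libraries. PSAT1 (chr9:80912059-80945009), the aminotransferase of the next step, was at 102, 101 and 107 FPKM in resistant libraries and at 38.9, 37.7 and 36.6 FPKM in parental libraries. These differences were 1.29 ± 0.0839 and 1.43 ± 0.0592, each without overlap (limma adjusted p = 2.7e-08 and 3.1e-10). PSPH (chr7:56078744-56119297), the phosphatase of the last step, moved much less, with 31.2, 32.3 and 33.2 FPKM in resistant libraries and 26.3, 28.4 and 27.3 FPKM in parental libraries (difference 0.23 ± 0.0598, limma adjusted p = 0.00341). Its pseudogene PSPHP1 reached 1.00 FPKM in resistant and 4.21 FPKM in parental libraries, so the small rise of PSPH is uncertain where reads of the copies were shared. Of the other pseudogenes named after these genes the highest value was 0.351 FPKM, for ASNSP5 in a parental library. ASNS (chr7:97481430-97501854), asparagine synthetase and the textbook CARE gene, was at 67.9, 69.9 and 77.1 FPKM in resistant libraries and at 28.6, 24.3 and 27.1 FPKM in parental libraries. Its rise of 1.39 ± 0.0744 (limma adjusted p = 3.2e-09) was close to that of PSAT1. GPT2 (chr16:46918290-46965209), the mitochondrial alanine aminotransferase, averaged 18.8 ± 1.41 FPKM in resistant and 8.77 ± 0.590 FPKM in parental cells (difference 1.02, limma adjusted p = 4.5e-08).

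The 3 genes of transsulfuration and glutathione also rose, beside 39.9% of all tested genes. CBS (chr21:44473301-44497053) makes cystathionine, and averaged 30.4 ± 2.22 FPKM in resistant and 14.0 ± 0.921 FPKM in parental cells (difference 1.07, limma adjusted p = 2.7e-08). CTH (chr1:70876901-70905534), which releases cysteine from cystathionine, averaged 7.24 ± 0.468 FPKM in resistant and 3.84 ± 0.285 FPKM in parental cells (difference 0.77, limma adjusted p = 7.1e-07). CHAC1 (chr15:41245160-41248710), an enzyme that degrades glutathione and a target of the ATF4 and CHOP branch, was at 4.06, 4.67 and 5.22 FPKM in resistant libraries and at 0.919, 0.494 and 0.866 FPKM in parental libraries. All parental values of CHAC1 were below 1 FPKM and the groups did not overlap (difference 1.69 ± 0.107, limma adjusted p = 3.5e-08).

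Among the 4 mitochondrial enzymes 3 rose, beside 39.9% of all tested genes, and the folate enzyme MTHFD2 did not pass. PCK2 (chr14:24563262-24579807), mitochondrial phosphoenolpyruvate carboxykinase, was at 28.3, 32.0 and 37.8 FPKM in resistant libraries and at 7.25, 5.38 and 7.71 FPKM in parental libraries. It rose by 2.12 ± 0.142 (limma adjusted p = 2.9e-06), with the groups well apart. ALDH1L2 (chr12:105413568-105478355), which oxidises formyl-tetrahydrofolate in mitochondria, was at 5.86, 4.85 and 6.52 FPKM in resistant libraries and at 0.3001, 0.310 and 0.463 FPKM in parental libraries. The ratio of its means was 16.1 (difference 2.31 ± 0.0955, limma adjusted p = 3.1e-10, or 3.68 with a pseudocount of 0.1 FPKM). C12orf45, which overlaps ALDH1L2 on the other strand, was at 6.82 and 8.17 FPKM in resistant and parental cells. SHMT2 (chr12:57623110-57628718), which turns serine into glycine in mitochondria, had the highest mean level of the 31 genes in both lines, although ATF4 was higher in resistant replicates 1 and 2. It was at 177, 190.5 and 205 FPKM in resistant libraries and at 134, 153 and 138 FPKM in parental libraries (difference 0.43 ± 0.0753, limma adjusted p = 1.9e-04). MTHFD2 (chr2:74425689-74444692), the dehydrogenase of the next mitochondrial folate step, was at 62.2, 61.4 and 64.5 FPKM in resistant libraries and at 62.0, 65.8 and 70.1 FPKM in parental libraries. The groups overlapped, and the interval of the difference ran from -0.21 to 0.07 (limma adjusted p = 0.319), which leaves out a rise of the size seen for SHMT2.

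Signalling brakes, which act on AKT, mTORC1 or ATF4 itself, did not move together. SESN2 (chr1:28586038-28609002), a leucine-binding inhibitor of mTORC1 signalling, was at 5.43, 5.76 and 6.26 FPKM in resistant libraries and at 3.48, 2.94 and 4.07 FPKM in parental libraries. It rose by 0.61 ± 0.0919 (limma adjusted p = 6.0e-05) with no overlap. TRIB3 (chr20:361261-378203), a pseudokinase induced by ATF4 and CHOP that feeds back on ATF4, was at 23.8, 26.8 and 29.9 FPKM in resistant libraries and at 34.1, 32.0 and 28.6 FPKM in parental libraries. The groups overlapped in 1 library each, and the fall of 0.23 ± 0.0878 (limma adjusted p = 0.0313) was lost in 6 of 15 alternatives, among them those without resistant replicate 1 (0.131) or 2 (0.0704) and without parental replicate 1 (0.119) or 2 (0.0855), in a range of 0.00638 to 0.131. DDIT4 (chr10:74033678-74035794), which encodes REDD1, another inhibitor of mTORC1, was at 34.1, 29.7 and 45.4 FPKM in resistant libraries and at 43.3, 37.5 and 45.3 FPKM in parental libraries. It did not pass (difference -0.22, interval -0.59 to 0.15, limma adjusted p = 0.231). Without resistant replicate 3, the highest of all libraries for this gene, it passed as lower, by 0.39 (adjusted p = 0.00218, in a range of 0.00218 to 0.546 over the alternatives).

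The secreted proteins and the receptor held some of the largest differences in both directions. STC2 (chr5:172741716-172756506), a stanniocalcin hormone induced by PERK and ATF4, was at 63.6, 62.3 and 68.3 FPKM in resistant libraries and at 10.7, 10.6 and 12.4 FPKM in parental libraries (difference 2.43 ± 0.0714, limma adjusted p = 1.4e-11). GDF15 (chr19:18485541-18499986), a stress cytokine of the TGF-beta family, was at 40.7, 41.2 and 54.3 FPKM in resistant libraries and at 7.79, 5.69 and 6.25 FPKM in parental libraries. It rose by 2.61 ± 0.137 (limma adjusted p = 4.6e-07), and the ratio of its means was 6.90. FGF21 (chr19:49258816-49261587), an endocrine hormone of the liver in particular, was under the level tested. It was at 0.0550, 0.165 and 0.153 FPKM in resistant libraries and listed at 0 in each parental one, at a coverage of at most 1.18 reads per base. VLDLR (chr9:2621834-2660053), a lipoprotein receptor induced by PERK and ATF4 in liver cells of the mouse, went against most of the set. It was at 0.0193, 0.0280 and 0.0635 FPKM in resistant libraries and at 4.87, 5.01 and 5.09 FPKM in parental libraries. VLDLR fell by 2.53 ± 0.0676 (limma adjusted p = 5.7e-12), and with a pseudocount of 0.1 FPKM the difference was -5.23.

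Within the resistant group the genes varied together. Of the 31 genes, 27 had their highest resistant value in replicate 3, 4 in replicate 2 and 0 in replicate 1. Among all tested genes these shares were 41.1%, 42.2% and 16.7%. The 4 genes highest in replicate 2, singled out after their values were seen, were ATF4, EIF2AK1, PPP1R15A and FGF21, and ATF4 was lowest in replicate 3. In TPM, where each library sums to the same total, 26 genes were highest in replicate 3, against 43.0% of tested genes, and with median-of-ratios scaling again 26, against 35.2%. The median deviation of 30 genes from their resistant mean was 0.11 in replicate 3, -0.02 in replicate 2 and -0.08 in replicate 1 on the log2 scale, small beside the median difference of 0.88 between the lines. In the parental libraries 13 genes were highest in replicate 1, 5 in replicate 2 and 12 in replicate 3, where the shares of all tested genes were 33.6%, 44.4% and 22.0%. Without resistant replicate 3 the comparison between lines still counted 22 genes higher, with 5 lower. The libraries carry no batch label, so a technical source of this shared deviation was not tested.

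**Figure D3:**
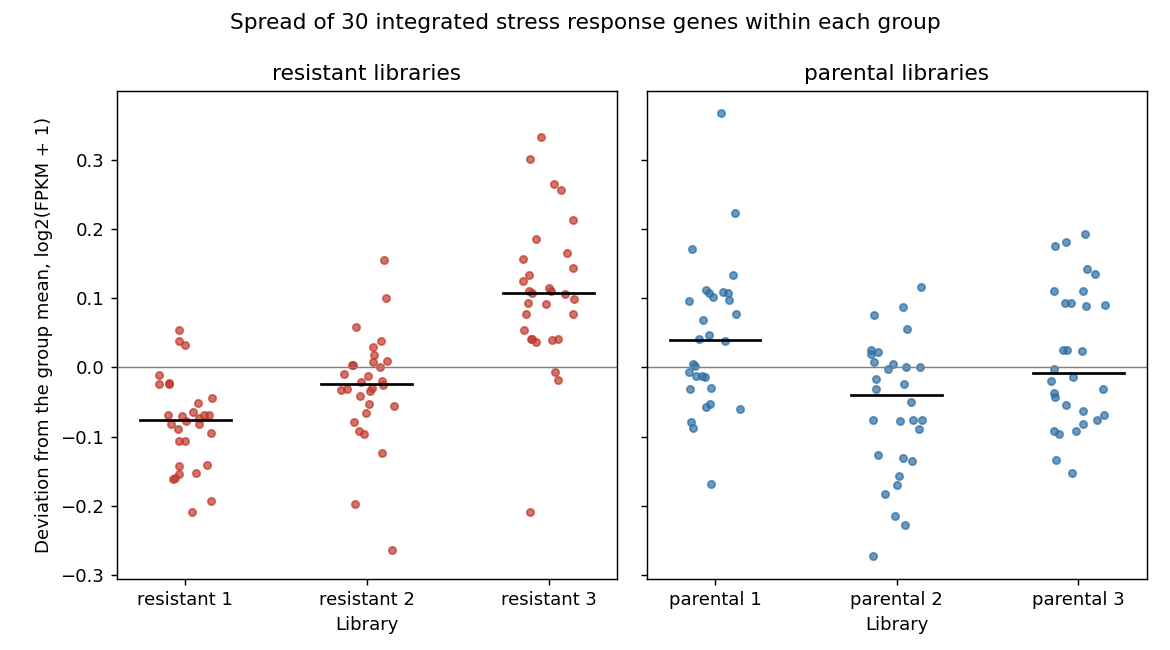
Deviation of 30 ISR genes (FGF21 left out) from the mean of their own group, on the log2(FPKM + 1) scale, in the 3 resistant libraries at left and the 3 parental libraries at right. Points are genes and black lines are medians, which run from -0.08 to 0.11 in resistant and from -0.04 to 0.04 in parental libraries.

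Related genes outside the set were read from lists, with 129 genes found and 125 tested. Among those tested 65 were higher and 37 lower, or 52.0% and 29.6% beside 39.9% and 38.1% of all tested genes. Of 16 amino acid transporters tested 14 rose and 2 fell, or 87.5% and 12.5% beside 39.9% and 38.1% of all tested genes, with a median of 1.25 beside 0.01. SLC1A4 (a transporter of neutral amino acids, 7.71 ± 0.0895 FPKM in resistant and 1.011 ± 0.0998 FPKM in parental cells) and SLC6A9 (the glycine transporter GLYT1, 17.9 ± 1.02 FPKM in resistant and 4.46 ± 0.444 FPKM in parental cells) rose by 2.12 and 1.79 (limma adjusted p = 3.7e-11 and 3.0e-10). SLC38A2, the transporter SNAT2 induced by amino acid shortage, was at 244, 263 and 235 FPKM in resistant libraries and at 83.4, 73.9 and 71.1 FPKM in parental libraries (difference 1.69, limma adjusted p = 5.4e-10). Both genes that fell, named after their values were seen, were SLC7A5 (the LAT1 subunit, -0.43) and the arginine transporter SLC7A1 (-0.50), while the cystine transporter SLC7A11 rose by 0.51.

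Core ISR machinery outside the set showed small differences and none of 1 or more on the log2 scale, against 19.3% of all tested genes. Within the set, the kinase gene EIF2AK3 and the phosphatase subunit gene PPP1R15A rose by 1.12 and 1.32. The kinase gene EIF2AK1 fell and EIF2AK4 did not pass. Of the 16 genes outside the set 5 rose and 9 fell, with a median of -0.19. These shares were 31.25% and 56.25%, beside 39.9% and 38.1% of all tested genes. DNAJC3, a co-chaperone that inhibits eIF2 kinases, averaged 10.5 ± 0.439 FPKM in resistant and 5.37 ± 0.184 FPKM in parental cells (difference 0.86, limma adjusted p = 6.2e-08), and EIF2S3, the gamma subunit of eIF2, rose by 0.63. OMA1, the protease that starts mitochondrial signalling to HRI, rose by 0.50. KIAA0141 (DELE1), of the same signalling route, fell by 0.24 (limma adjusted p = 0.00229), and EIF2AK1, which encodes HRI, fell as given above. OMA1 and KIAA0141 were named after their values were seen. PPP1CA, a catalytic subunit used by the eIF2 phosphatase, averaged 214 ± 15.4 FPKM in resistant and 346 ± 16.4 FPKM in parental cells and fell by 0.69 (limma adjusted p = 1.6e-06). Of the 5 subunits of the exchange factor eIF2B, named after their values were seen, 4 fell and 1 rose. Of all tested genes 38.1% fell and 39.9% rose. The differences were -0.60 for EIF2B1, -0.32 for EIF2B2, -0.30 for EIF2B4, -0.21 for EIF2B5 and 0.22 for EIF2B3.

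Of 25 further ATF4 and CHOP targets and partners tested, 12 rose and 8 fell, with a median of 0.15. These shares, 48.0% and 32.0%, lay not far from the 39.9% and 38.1% of all tested genes. TRIB2, a relative of TRIB3, averaged 6.80 ± 0.416 FPKM in resistant and 0.0538 ± 0.0163 FPKM in parental cells and rose by 2.89 (limma adjusted p = 3.2e-12). FAM129A, a stress-induced regulator of translation also called NIBAN1, averaged 15.4 ± 0.299 FPKM in resistant and 1.43 ± 0.362 FPKM in parental cells and rose by 2.76 (limma adjusted p = 7.8e-11). HMOX1, heme oxygenase, which NRF2 and ATF4 both induce, fell by 3.07, at 15.1 ± 1.41 FPKM in resistant and 134 ± 6.12 FPKM in parental cells (limma adjusted p = 2.0e-12). ADM2, named after its values were seen, rose by 1.75, and ATF5, likewise, fell by 0.61.

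Of 22 tested enzymes of amino acid, proline, folate and glutathione metabolism outside the set, 8 rose and 8 fell, with a median of 0.08. These shares, 36.4% in each direction, were near those of all tested genes. BCAT1, the cytosolic branched-chain aminotransferase, was at 34.9, 33.8 and 35.1 FPKM in resistant libraries and at 0.583, 0.435 and 0.501 FPKM in parental libraries (difference 4.56, limma adjusted p = 3.7e-14). GCLM, the modifier subunit of the enzyme that starts glutathione synthesis, fell by 1.73, at 3.95 ± 0.0701 FPKM in resistant and 15.4 ± 1.49 FPKM in parental cells (limma adjusted p = 4.1e-10). The ATF6 and IRE1 arms of the unfolded protein response share the endoplasmic reticulum signal with PERK. On their list 11 of 17 genes rose, 2 fell and 4 did not pass, with a median of 0.68. The shares that rose and fell were 64.7% and 11.8%, beside 39.9% and 38.1% of all tested genes. Those that fell, named after their values were seen, were SDF2L1 (-0.58) and PDIA4 (-0.50). XBP1, the IRE1 target, was at 155, 176 and 167 FPKM in resistant libraries and at 33.2, 31.1 and 37.4 FPKM in parental libraries. These gene levels do not measure the splicing of XBP1 mRNA by IRE1. HERPUD1 and the chaperone gene HYOU1 differed by 2.13 and 1.46.

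**Figure D4:**
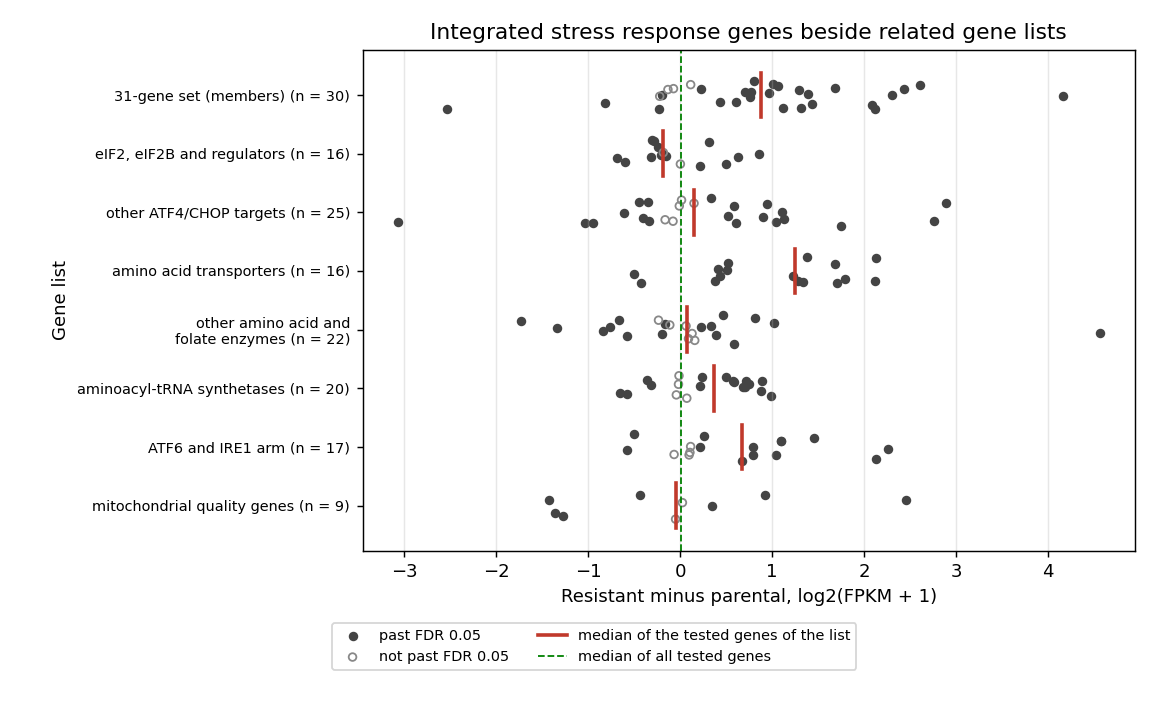
Differences of the tested ISR genes and of the tested genes of 7 related lists, resistant minus parental, in log2(FPKM + 1) units, with a red line at each list's median and a dashed line at the median of all tested genes. Medians are 0.88 for the ISR genes and 1.25 for amino acid transporters, and between -0.19 and 0.68 for the other lists.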

How the data were processed

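RNA-seq of 3 H1975 OR and 3 parental H1975 libraries was analysed, grouped by sample title. The series design states biological replicates, and p-values measure the spread among these libraries. Per the submitters' processing notes the genome was GRCh37, and DESeq is named with no role. The sources used here give no aligner, quantifier, annotation release or use of strand. The authors deposited FPKM in a series table, and per the file headers also coverage, FPKM and TPM for each library. Between 1 and 4 genes per library differed by over 1e-05 FPKM between both kinds of file. Only FPKM entered the main test. TPM was an alternative, and deposited coverage gave the depth estimate. Counts of reads were not used, so no interval for counting error is given, and a listed 0 may be a failed estimate.

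A gene entered the test when the mean of one line reached 1 FPKM. The test was limma (3.58.1, R 4.3.3), fitted to log2(FPKM + 1) values by line alone, two-sided, using robust moderation and a trend over intensity, with Benjamini-Hochberg adjustment over all 12107 genes. Differences are resistant minus parental and understate the change of low genes. The fit was tested on simulated data. The 31 genes and the lists were chosen with earlier results of these data known. Every one of the 31 is named. From each related list the text names the 3 largest differences among genes past an FDR of 0.05 with at least 5 FPKM in the higher group and no overlap, apart from 1 gene that is not reported here. Coordinates of genes are GRCh37, from the deposited files, and those of promoters GRCh38.p14, from RefSeq. The endothelial marker PECAM1 was not analysed here. Alternatives were other pseudocounts, filters and scalings, TPM, plain moderation, a replicate block and leaving out each library.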

Additional observations from a re-analysis of the deposited data

How the results depend on the processing

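Of the 30 tested ISR genes, 26 kept their direction and their side of the FDR threshold under all 15 alternatives, and 0 reversed. The others were EIF2AK1, EIF4EBP1, TRIB3 and DDIT4. The number of ISR genes past the threshold was 26, and 24 to 27 when single libraries were left out. The number higher stayed at 22 in each of those fits, and the number lower was 2 to 5, beside 4. With the filter of at least 5 FPKM over all libraries 26 of the genes were tested, 19 passed as higher, and 7 amino acid transporters rose in place of 14, since fewer genes were tested. Without a filter FGF21 was tested too, 23 genes were higher and TRIB3 no longer passed (adjusted p = 0.0965). Over all genes 9448 passed, and 8985 to 9261 when single libraries were left out. Scaling moved the median of all genes by -0.01 with median of ratios and by 0.03 with TPM.

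Replicate numbers are shared between the groups. The correlations of deviations of same-numbered libraries were -0.14, 0.08 and 0.10 for numbers 1 to 3. Those of other pairs ran from -0.16 to 0.08. With 3 libraries per group these values cannot show whether same-numbered libraries were prepared together. The main test did not treat the numbers as pairs. With a replicate block 9422 genes and 26 ISR genes passed, 22 of these higher, DDIT4 passed as lower (adjusted p = 0.0224) and TRIB3 did not pass (adjusted p = 0.0629).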

Other observations

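Aminoacyl-tRNA synthetases, which load amino acids onto tRNA and include known ATF4 targets, differed less than the transporters. Of 20 cytosolic genes 12 rose and 4 fell, with a median of 0.37, and none differed by 1 or more on the log2 scale. FARSA, a subunit of the phenylalanine enzyme, averaged 133 ± 8.19 FPKM in resistant and 66.8 ± 4.17 FPKM in parental cells (difference 0.98, limma adjusted p = 4.7e-08), while its partner subunit FARSB, named after its values were seen, fell by 0.58. AARS, the alanine enzyme, and MARS, the methionine enzyme, rose by 0.89 and 0.88. KARS, the lysine enzyme, and WARS, the tryptophan enzyme, both named after their values were seen, fell by 0.65 and 0.36.

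Of 9 tested genes of mitochondrial protein quality control 3 rose and 4 fell, with a median of -0.05. These shares, 33.3% and 44.4%, were near the 39.9% and 38.1% of all tested genes. YME1L1, a protease of the inner mitochondrial membrane, was at 280.1, 275 and 282 FPKM in resistant libraries and at 52.4, 52.7 and 45.2 FPKM in parental libraries (difference 2.46, limma adjusted p = 1.0e-11). The chaperonin genes HSPD1 and HSPE1, which encode partner subunits, fell by 1.42 and 1.36. HSPE1 lies within the annotated span of HSPD1 on the other strand, so their reads may not have been told apart. HSPD1 averaged 174 ± 6.16 FPKM in resistant and 468 ± 42.2 FPKM in parental cells. LONP1, a matrix protease and ATF4 target, rose by 0.92 and was named after its values were seen.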
